A study of Mus musculus with 2 samples.

Results

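The genes described here are the mouse histocompatibility genes, whose symbols start with H2-, together with 17 other genes of antigen presentation and macrophages, and they were picked by symbol. The rule gave 62 of the 55536 annotated genes, of which 45 carry an H2- symbol. The other 17 are B2m, Tap1, Tap2, Tapbp, Cd74, C1qa, C1qb, C1qc, Lyz2, Csf1r, Cd68, Cd163, Mrc1, Adgre1, Tyrobp, Fcer1g and Aif1. Of the 62 genes, 38 had reads in at least 1 library, 32 had reads in both, and 24 had none.

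Long-read RNA sequencing was done on whole adrenal gland of male B6CASTF1/J mice aged 36 days, which are first-generation offspring of a cross between C57BL/6 and the wild-derived CAST strain. There was 1 group of 2 libraries, replicate 1 and replicate 2, with no treatment or mutation, so no condition was compared with another. The labels give both libraries the same donor identifier, and an animal number that is the same in one field and different in another, so part of their spread may be technical. The F1 animals carry a C57BL/6 and a CAST copy of each of these genes, while reads were assigned to models on the C57BL/6-based mm10 genome. The part of this in the levels was not tested, nor whether the splice forms of a gene came from different copies.

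Class I molecules show peptides made inside a cell to CD8+ T cells. Each consists of a variable heavy chain (H2-K1, H2-D1 and relatives) and the constant light chain B2m, and the peptide is pumped in by Tap1 and Tap2 and loaded with the help of tapasin (Tapbp). Class II molecules are pairs of an alpha and a beta chain (H2-Aa with H2-Ab1) that show peptides from engulfed material to CD4+ T cells. They are escorted by the invariant chain Cd74 and are made mainly by macrophages, dendritic cells and B cells. The adrenal gland holds resident macrophages among its hormone-making cells, and tissue macrophages are a major source of C1q, the recognition protein of the classical complement pathway.

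The best known classical class I and class II genes share short promoter elements, and 4 promoters are printed here to show them: those of H2-K1 and H2-D1, which carried most heavy-chain reads, and of the class II genes H2-Aa and H2-Eb1. RefSeq promoter windows on GRCm38.p6, each with 250 bases before and 50 bases after the start, were found for 43 of the 62 genes, in 46 windows. The Y box of class II promoters, searched as TGATTGG, and the core of the kappa B element of H2-K promoters, spelled out after the sequences, were searched on both strands. Capitals mark the matches, and those of the 2 motifs did not overlap in the windows printed. The windows are chr17:34000298-34000597 on the minus strand for H2-K1, chr17:35262844-35263143 on the plus strand for H2-D1, chr17:34287774-34288073 on the minus strand for H2-Aa and chr17:34305617-34305916 on the plus strand for H2-Eb1.
H2-K1: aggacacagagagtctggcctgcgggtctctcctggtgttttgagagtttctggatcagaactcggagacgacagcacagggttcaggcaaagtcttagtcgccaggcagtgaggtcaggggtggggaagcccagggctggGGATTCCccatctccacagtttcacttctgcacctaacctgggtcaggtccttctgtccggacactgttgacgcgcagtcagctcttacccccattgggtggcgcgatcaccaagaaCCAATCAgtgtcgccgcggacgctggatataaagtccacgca
H2-D1: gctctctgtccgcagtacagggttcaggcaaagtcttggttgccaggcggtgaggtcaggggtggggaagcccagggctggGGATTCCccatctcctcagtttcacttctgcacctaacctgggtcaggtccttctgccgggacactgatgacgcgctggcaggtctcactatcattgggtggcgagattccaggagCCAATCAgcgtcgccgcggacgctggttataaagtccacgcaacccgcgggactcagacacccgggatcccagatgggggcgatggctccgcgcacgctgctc
H2-Aa: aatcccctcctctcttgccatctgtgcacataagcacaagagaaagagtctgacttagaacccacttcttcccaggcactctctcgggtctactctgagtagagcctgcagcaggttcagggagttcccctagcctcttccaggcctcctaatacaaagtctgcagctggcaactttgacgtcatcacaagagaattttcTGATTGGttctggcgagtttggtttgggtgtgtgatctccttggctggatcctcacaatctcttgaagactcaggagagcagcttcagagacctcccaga
H2-Eb1: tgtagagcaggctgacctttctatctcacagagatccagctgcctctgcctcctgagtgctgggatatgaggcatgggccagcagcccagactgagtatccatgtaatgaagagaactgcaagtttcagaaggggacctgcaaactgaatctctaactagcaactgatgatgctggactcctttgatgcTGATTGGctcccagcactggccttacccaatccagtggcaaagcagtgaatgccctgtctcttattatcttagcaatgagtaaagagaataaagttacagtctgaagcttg

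TGATTGG was in 7.82% of all 32851 promoter windows. It was in the window of 16 of 23 class I heavy-chain genes, 7 of 8 class II genes, 1 of 3 assembly genes, 1 of 6 macrophage genes and neither of the 2 C1q genes that had one. Among the heavy-chain genes with a window, 7 of the 9 with reads held it, and 9 of the 14 with no reads. The kappa B core, searched as GGATTCC, was in 3.79% of all windows and in those of 5 class I heavy-chain genes, namely H2-K1, H2-D1, H2-Q6, H2-Q7 and H2-M5, and no other member with a window held it. A match describes the letters of the window and does not show that a factor binds there.

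The libraries held 452489 (replicate 1) and 463210 (replicate 2) endogenous reads after removal of spike-in RNA, and 1 read equals 2.21 and 2.16 CPM. CPM is the count per 1000000 endogenous reads. A gene with no read lies below 6.63 and 6.48 CPM, the level of 3 counts. Values below are reads or CPM, and ± is the SD of the 2 libraries. The libraries differed outside these genes. A list of 17 pancreas genes, written after its values were seen, had 2 reads in replicate 1 and 3887 in replicate 2, and 12 liver genes were listed in the same way. Of these, Hp had 175 reads in replicate 1 and 191 in replicate 2 (adjusted p = 0.896 by Fisher's exact test), and the other 11 together had 6 and 332. The 5 adrenal cortex markers (Cyp11a1, Star, Cyp21a1, Cyp11b1, Nr5a1) summed to 59301 CPM in replicate 1, against 47624 CPM in replicate 2, and the 5 medulla markers (Th, Dbh, Pnmt, Chga, Chgb) to 10478 and 15399 CPM. Their part in the results below was not tested. In tissue RNA of this kind, fewer cells of a type and less RNA per cell cannot be told apart.

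Together the 62 genes had 1806 reads in replicate 1 and 1835 in replicate 2, which is 0.399% and 0.396% of endogenous reads (3976 ± 21.1 CPM). The ratio of replicate 1 to replicate 2 was 1.01 (95% interval 0.944 to 1.08, counting error only). The reads were concentrated in few genes: H2-D1, B2m, H2-K1 and Cd74 held 56.9% of them in replicate 1 and 55.5% in replicate 2, and the 10 genes with most reads held 84.6% and 83.4%. Per kilobase of the leading transcript the order of these genes was different, with B2m at 563 ± 36.3, H2-D1 at 431 ± 47.5, Cd74 at 345 ± 56.1, H2-Ke6 at 341 ± 52.0 and H2-K1 at 270 ± 7.34 CPM per kilobase. Cd74 and H2-Ke6 did not differ beyond their spread on that scale. Since a long read is 1 cDNA molecule, the order by molecules read is that of CPM, not of CPM per kilobase.

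**Figure D1:**
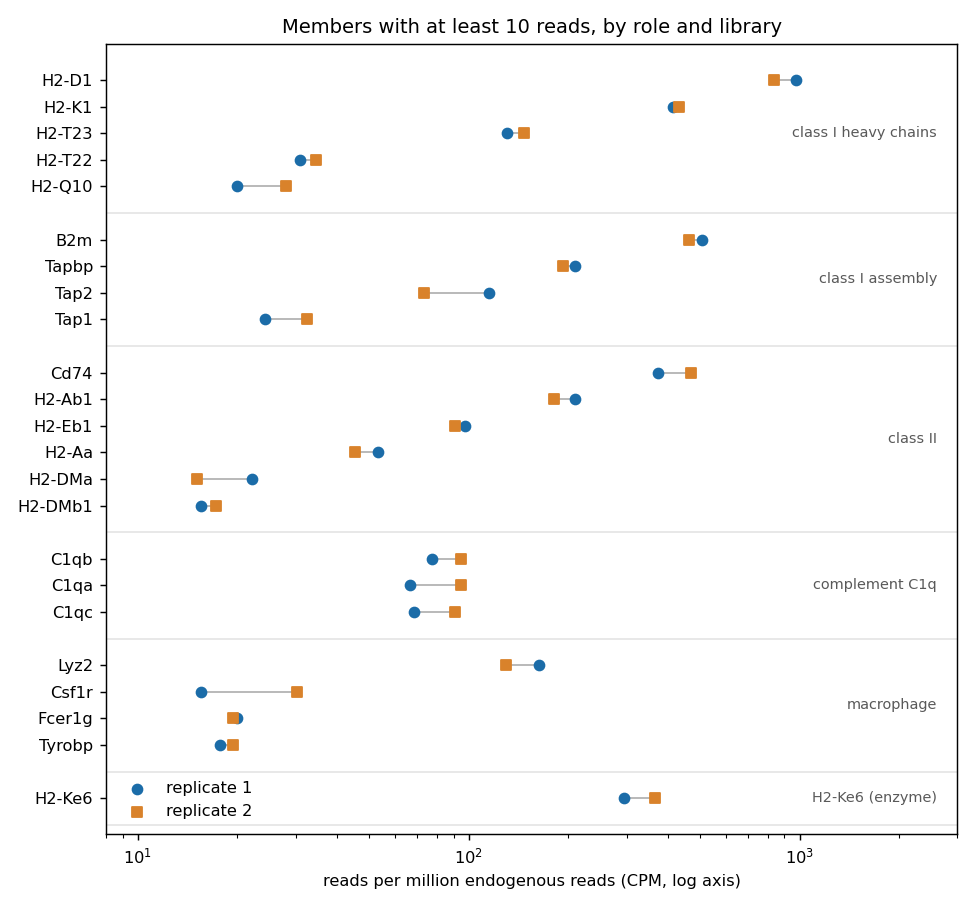
Level in CPM (log axis) of the 23 members with at least 10 reads, grouped by role, with a circle for replicate 1 and a square for replicate 2. H2-D1 lies highest within class I, at 977 CPM in replicate 1, against 835 CPM in replicate 2, and the 3 C1q genes lie close together, each with replicate 1 to the left of replicate 2.

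The class I heavy chains were the largest group, with 725 reads in replicate 1 and 698 in replicate 2 (1555 ± 67.4 CPM), and 12 of their 32 genes had reads. H2-D1 and H2-K1, the classical heavy chains that present peptides to CD8+ T cells, made up most of the group. H2-D1 (chr17:35262730-35267499, plus strand) had 442 reads in replicate 1 and 387 in replicate 2 and ranked 114 among tested genes by reads. H2-K1 (chr17:33996017-34000347, minus strand) had 188 and 200 reads. There were 2.35 H2-D1 reads per H2-K1 read in replicate 1 (95% interval 1.98 to 2.80) and 1.94 in replicate 2 (1.63 to 2.31), and on the mean per-kilobase scale the ratio was 1.60.

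Among the nonclassical heavy chains, which have narrow functions and vary little between individuals, H2-T23 had 59 reads in replicate 1 and 68 in replicate 2 (139 ± 11.6 CPM). Its product, Qa-1, is a ligand of an inhibitory receptor on natural killer cells. H2-T22, whose product is recognised by some gamma delta T cells, had 14 and 16 reads. H2-Q10, a secreted heavy chain made mainly by the liver, had 9 and 13 reads, in libraries where the 11 listed liver genes other than Hp had 6 and 332. The remaining heavy-chain genes and pseudogenes with reads were near the detection limit: H2-Q7 (6 and 2 reads), H2-Q6 (1 and 5), H2-T10 (4 and 0), H2-M3 (2 and 3), H2-T-ps (0 and 2), H2-K2 (0 and 1) and H2-T24 (0 and 1). Of these, H2-T-ps and H2-K2 are annotated as pseudogenes and H2-T10 as a polymorphic pseudogene.

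No read was assigned to 20 heavy-chain genes and pseudogenes: H2-Bl, H2-Q1, H2-Q2, H2-Q3, H2-Q4, H2-Q5, H2-T3, and the 13 H2-M genes other than H2-M3. Heavy-chain genes resemble one another to different degrees, and a read of a close relative may have been given to the wrong gene. The coding sequence of H2-D1 was 91.5% identical to that of H2-K1, 89.8% to H2-Q7, 89.6% to H2-Q10, 81.1% to H2-T23 and 73.4% to H2-T22.

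The 4 genes of class I assembly had 387 reads in replicate 1 and 352 in replicate 2 (808 ± 67.4 CPM). B2m, the light chain shared by all class I molecules, had 229 and 214 reads (484 ± 31.2 CPM). Heavy-chain reads outnumbered B2m reads by 3.17 to 1 in replicate 1 (95% interval 2.73 to 3.69) and by 3.26 to 1 in replicate 2 (2.79 to 3.82). These are ratios of molecules read, not divided by length.

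Tapbp, the bridge between the peptide pump and the heavy chain, had 95 reads in replicate 1 and 89 in replicate 2. The gene Zbtb22 overlaps it on the same strand, with 17 and 24 reads, so some reads may belong to either. The peptide pump itself is built from 1 Tap1 and 1 Tap2 chain, and Tap2 was read more often than Tap1. Tap2 had 52 and 34 reads and Tap1 had 11 and 15, a ratio of 4.73 in replicate 1 (95% interval 2.44 to 10.05) and 2.27 in replicate 2 (1.20 to 4.48). Per kilobase the mean ratio was 2.85, from 27.4 ± 8.53 CPM per kilobase for Tap2 and 9.60 ± 1.93 for Tap1. Tap1 overlaps Psmb9 on the opposite strand, which had 5 and 11 reads.

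The class II genes had 354 reads in replicate 1 and 384 in replicate 2 (806 ± 33.0 CPM), and 9 of 13 had reads. Cd74, the invariant chain, led with 169 and 218 reads (422 ± 68.7 CPM). H2-Ab1, the beta chain of I-A, had 95 and 84 reads, against 24 and 21 for its partner alpha chain H2-Aa. The ratio of H2-Ab1 to H2-Aa was 3.96 in replicate 1 (95% interval 2.51 to 6.48) and 4.00 in replicate 2 (2.46 to 6.80), and per kilobase it was 3.70 on the means. The ratio between these partner chains was nearly the same in both libraries.

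H2-Eb1, the beta chain of I-E, had 44 reads in replicate 1 and 42 in replicate 2. Its alpha partner is annotated as a polymorphic pseudogene, H2-Ea-ps, which a deletion silences in C57BL/6 mice, and it had 4 and 2 reads. There were 1.04 Cd74 reads for each read of H2-Aa, H2-Ab1 and H2-Eb1 together in replicate 1 (95% interval 0.831 to 1.29), and 1.48 in replicate 2 (1.20 to 1.84). The peptide exchange factor DM was detected through H2-DMa (10 and 7 reads), H2-DMb1 (7 and 8) and H2-DMb2 (1 and 1). Its inhibitor DO was represented by 1 read of H2-Ob, in replicate 2, and H2-Oa, H2-Eb2, H2-Pa and H2-Pb had none. H2-DMa overlaps Brd2 on the opposite strand (28 and 29 reads).

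The 3 C1q genes, which lie side by side on chromosome 4 and encode the chains of 1 protein, were read in nearly equal numbers. C1qa had 30 reads in replicate 1 and 44 in replicate 2, C1qb had 35 and 44, and C1qc had 31 and 42. The ratio of C1qb to C1qa was 1.17 (95% interval 0.696 to 1.97) in replicate 1 and 1.00 (0.643 to 1.55) in replicate 2, and that of C1qc to C1qa was 1.03 (0.605 to 1.77) and 0.955 (0.610 to 1.49). Per kilobase the chains stood at 79.2 ± 11.5 for C1qb, 77.5 ± 19.5 for C1qa and 66.2 ± 13.0 for C1qc, which do not differ beyond their spread. The sum was 212 CPM in replicate 1, against 281 CPM in replicate 2, a ratio of 0.756 (95% interval 0.575 to 0.992), and all 3 chains were lower in replicate 1. That interval covers counting error only and was not adjusted for the number of groups. None of the 3 genes was called, at an adjusted p by Fisher's exact test of 0.497 for C1qa, 0.772 for C1qb and 0.645 for C1qc.

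The 9 macrophage genes had 111 reads in replicate 1 and 102 in replicate 2 (233 ± 17.8 CPM). Lyz2, which encodes lysozyme M, supplied most of them with 74 and 60 reads. Csf1r, the receptor for the macrophage growth factor Csf1, had 7 and 14 reads. The signalling adaptors Fcer1g and Tyrobp had 9 and 9 reads and 8 and 9 reads. The remaining markers were near the detection limit: Cd68 (6 and 2), Cd163 (2 and 2), Mrc1 (3 and 1), Adgre1, the gene of the F4/80 antigen (2 and 1), and Aif1 (0 and 4).

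H2-Ke6 carries an H2- symbol from its place in the complex but encodes an enzyme, Hsd17b8, of the short-chain dehydrogenases that act on steroids and fatty acids. It had 133 reads in replicate 1 and 169 in replicate 2 (329 ± 50.1 CPM), which is more than the 9 macrophage genes together over all reads. With full-length reads only the 2 did not differ beyond their spread, at 204 ± 13.6 CPM for H2-Ke6 and 208 ± 25.1 CPM for the macrophage genes. The gene Gm20427 overlaps it on the same strand, with 26 and 9 reads, so some reads may belong to either.

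None of the 23 members with at least 10 reads summed was called between the libraries by Fisher's exact test per gene (two-sided, Benjamini-Hochberg over 8135 genes; called at an adjusted p under 0.05 and 2-fold), against 3.16% of all tested genes. The smallest adjusted p was 0.199, for Cd74. At an unadjusted p under 0.05 there were 3 of 23 (13.0%), namely Tap2, H2-D1 and Cd74, against 16.9% of all tested genes. With TMM scaling the count was also 0, against 3.12% of all tested genes, and with DESeq2 scaling 0, against 2.91%. By size, 10 were higher in replicate 1 and 13 were lower, and their median log2 ratio was -0.13 beside 0.03 over all tested genes. The test compares these 2 libraries and has no replicate check.

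**Figure D2:**
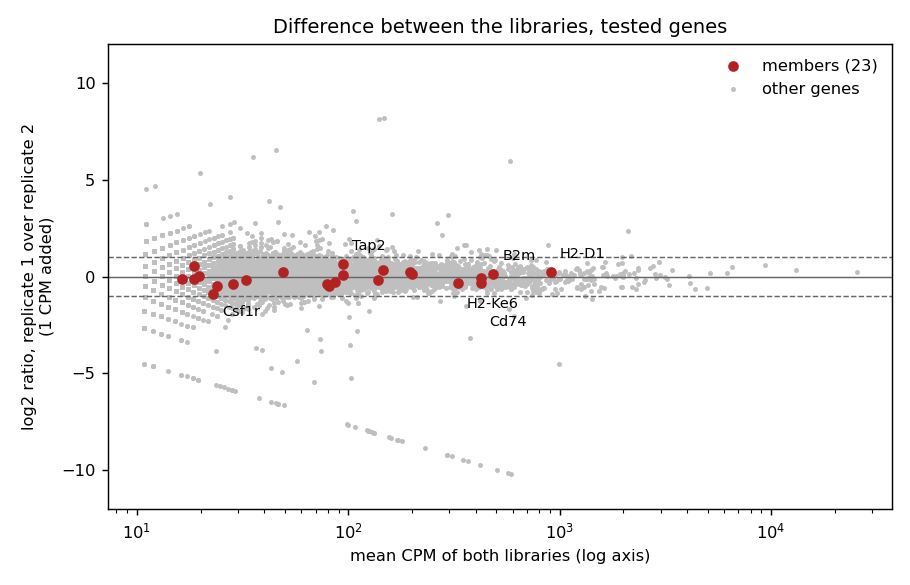
The log2 ratio of replicate 1 over replicate 2 (1 CPM added) against mean CPM (log axis) for all 8135 tested genes, with the 23 members in red and dashed lines at 2-fold. The members lie between -0.92 (Csf1r) and 0.64 (Tap2), inside both lines, while other genes reach -10.2 and 8.20.

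Long reads show which splice form each molecule had. Among full-length reads, 15 members had at least 20 in each library. The leading form held under 80% of reads in both libraries in 4 of the 15 (26.7%), namely H2-K1, Tapbp, Cd74 and H2-Ke6, beside 23.6% of the other 3015 genes with that depth. In 3 of these 4, the leading annotated forms differ in protein-coding bases. B2m, C1qa, H2-Aa and Lyz2 were read as 1 form in 99.1% or more of their full-length reads in both libraries.

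H2-K1 was read as 2 forms in nearly equal amounts. H2-K1-205 held 81 of 167 full-length reads in replicate 1 (48.5%, Wilson 95% interval 41.0 to 56.0) and 74 of 161 in replicate 2 (46.0%, 38.4 to 53.7). H2-K1-201 held 68 (40.7%, 33.6 to 48.3) and 77 (47.8%, 40.3 to 55.5). The forms differ at the acceptor of the last exon, exon 8, in the part that encodes the end of the cytoplasmic tail. H2-K1-201 uses an acceptor 27 bases upstream (chr17:33996477-33996503, minus strand), which adds 9 codons. The sequences show the end of the coding transcript, with the bases found in H2-K1-201 alone in capitals.
H2-K1-201: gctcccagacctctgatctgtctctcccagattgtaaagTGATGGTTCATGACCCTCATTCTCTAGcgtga
H2-K1-205: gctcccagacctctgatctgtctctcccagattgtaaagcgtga

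Tapbp also had 2 major forms, which differ by a single codon. Tapbp-201 held 39 of 82 full-length reads in replicate 1 (47.6%, 37.1 to 58.2) and 35 of 67 in replicate 2 (52.2%, 40.5 to 63.7), and Tapbp-206 held 36 (43.9%, 33.7 to 54.7) and 32 (47.8%, 36.3 to 59.5). The forms use acceptors of exon 7 that lie 3 bases apart (chr17:33926627-33926629, plus strand). The sequences show the bases around them, with those found in Tapbp-201 alone in capitals.
Tapbp-201: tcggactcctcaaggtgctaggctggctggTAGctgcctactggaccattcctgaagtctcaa
Tapbp-206: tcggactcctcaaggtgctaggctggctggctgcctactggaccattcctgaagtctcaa

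Cd74 was read with and without its alternative exon. Cd74-201 held 97 of 162 full-length reads in replicate 1 (59.9%, 52.2 to 67.1) and 151 of 208 in replicate 2 (72.6%, 66.2 to 78.2). Cd74-202 held 62 (38.3%, 31.1 to 45.9) and 55 (26.4%, 20.9 to 32.8). Its additional exon 7, of 192 bases or 64 codons, encodes a thyroglobulin-type domain known to inhibit cysteine proteases. The difference in the leading share, replicate 1 minus replicate 2, was -12.7 percentage points and was not called by Fisher's exact test (p = 0.0106, adjusted p = 0.713 over 3030 genes). No member was called in that test, beside 0.066% of all genes, and Cd74 alone had an unadjusted p under 0.05 (1 of 15 members, or 6.67%, against 4.31% of the other 3015 genes).

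H2-D1 was read mainly as H2-D1-202, at 84.2% of 405 full-length reads in replicate 1 and 86.5% of 348 in replicate 2. Of its 36 forms, 8 occurred in both libraries. The most frequent unannotated form, with 15 reads (3.70%, 2.26 to 6.02) and 19 reads (5.46%, 3.52 to 8.37), starts exon 3 at an acceptor 114 bases downstream (chr17:35263839-35263952, plus strand) and so lacks 38 codons. Exon 3 of a class I gene encodes the second of the domains that form the peptide groove. The bases absent from that form are shown in capitals in their place in H2-D1-202.
H2-D1-202: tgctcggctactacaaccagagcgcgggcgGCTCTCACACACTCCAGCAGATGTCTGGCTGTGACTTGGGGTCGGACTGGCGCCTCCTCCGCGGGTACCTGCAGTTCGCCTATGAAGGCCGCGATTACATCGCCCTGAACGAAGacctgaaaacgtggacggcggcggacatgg

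Other unannotated H2-D1 forms, chosen after their values were seen, also changed the length by a multiple of 3. One gained 15 bases in front of exon 6 (11 reads in replicate 1 and 4 in replicate 2), and one gained 45 bases after exon 5 and skipped exon 6, of 33 bases (9 and 4 reads). An unannotated form of H2-Ke6 with 21 extra bases after exon 1 was read 9 times in each library, beside H2-Ke6-201 at 75.0% and 70.7% of full-length reads.

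Counting single junctions over all read classes, incomplete reads included, gave like shares. The upstream acceptor of H2-K1 was used in 47.8% of 182 reads in replicate 1 and 54.1% of 183 in replicate 2. That of Tapbp was used in 50.6% of 89 and 51.9% of 81. The alternative exon of Cd74 was kept in 39.0% of 164 and 26.6% of 214, and the unannotated acceptor of H2-D1 was used in 3.60% of 417 and 5.22% of 364.

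**Figure D3:**
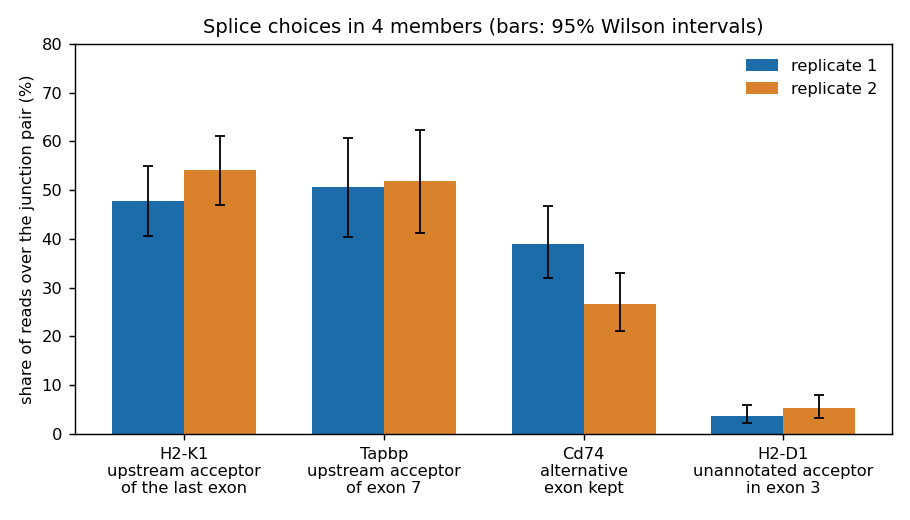
Share of reads over each junction pair (percent) that made the named choice, for H2-K1, Tapbp, Cd74 and H2-D1, with replicate 1 left of replicate 2 and lines for 95% Wilson intervals. The H2-K1 and Tapbp bars stand between 47.8% and 54.1%, Cd74 at 39.0% and 26.6%, and H2-D1 at 3.60% and 5.22%.

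The deposited files sort each read by how it follows the annotation. Known reads matched an annotated transcript in 83.7% of member reads in replicate 1 (Wilson 95% interval 81.9 to 85.4) and 80.1% in replicate 2 (78.2 to 81.9), beside 79.0% and 78.0% for all other annotated genes. Incomplete splice matches (ISM), which lack exons at an end, made up 8.91% and 12.5% of member reads, beside 8.22% and 8.95%. Genomic reads, which cover unspliced sequence, made up 0.664% and 1.58%, beside 5.23% and 6.34%. These shares were not tested across genes.

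The roles differed in these shares. Known reads made up 92.4% in replicate 1 and 91.1% in replicate 2 in class II and 92.2% and 89.8% in class I assembly, but 78.3% and 75.4% in the class I heavy chains. Unannotated forms with new splice sites (NNC) made up 7.03% and 6.30% of heavy-chain reads, beside 3.32% and 3.15% in other genes. Most of them came from H2-D1, with 40 of these 51 reads in replicate 1 and 31 of 44 in replicate 2. H2-K1 had 4 and 5. H2-Ke6 had 54.9% and 49.7% Known reads. Its main incomplete model was a spliced 3′ fragment of 2 exons and 555 bases, with 36 reads (27.1%, 20.2 to 35.2) and 53 reads (31.4%, 24.8 to 38.7). Of H2-T23, 7 and 12 reads followed 1 incomplete model of 6 exons that lacks the annotated start. Of H2-K1, 14 reads of replicate 2 came from 1 unspliced piece of 90 bases at its 3′ end.

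**Figure D4:**
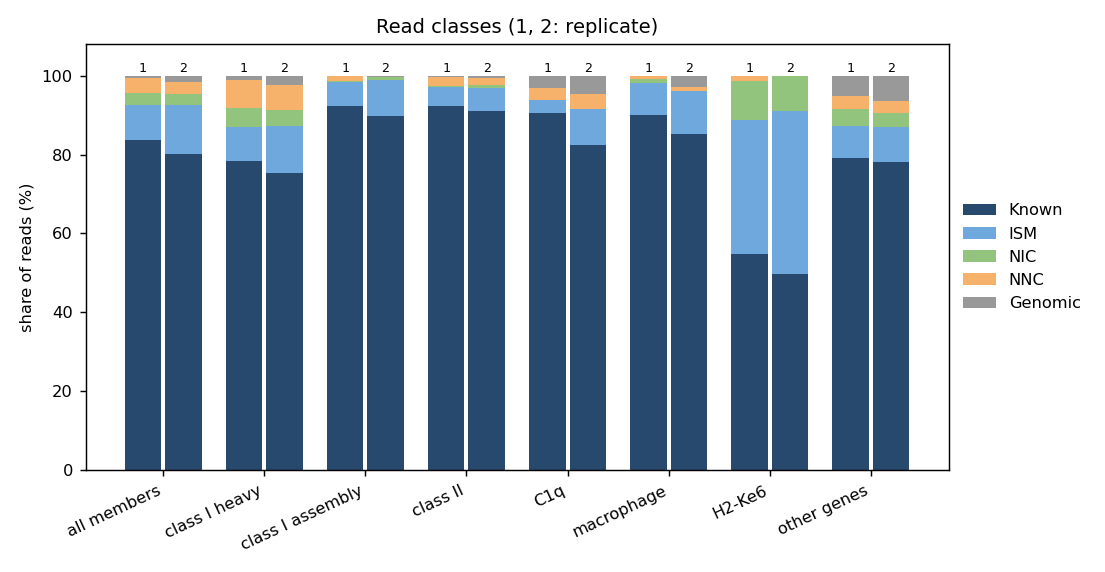
Share of reads (percent) in each class for all members, each role and all other annotated genes, with replicate 1 left of replicate 2. Known reads are least frequent in H2-Ke6, at 54.9% and 49.7%, and exceed 82% in the assembly, class II, C1q and macrophage groups.

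The H2 genes lie in the major histocompatibility complex on chromosome 17. Between the outermost H2- genes (chr17:33974659-37483552) the annotation has 323 genes, of which 122 had reads, and 48 of the members lie there, 24 of them with reads. Members held 1106 of 10089 reads of the interval in replicate 1 (10.96%, Wilson 95% interval 10.4 to 11.6) and 1086 of 8424 in replicate 2 (12.9%, 12.2 to 13.6). Cyp21a1, the steroid 21-hydroxylase of the adrenal cortex, alone held 65.8% and 63.4%. Without it, members held 32.1% and 35.2%. After Cyp21a1, the non-members with most reads were Slc39a7, a zinc transporter beside H2-Ke6 (142 reads in replicate 1 and 145 in replicate 2), Tubb5, a beta tubulin (127 and 117), Ddx39b, an RNA helicase (95 and 88), and Cyp21a2-ps, the pseudogene of the hydroxylase (114 and 64).

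**Figure D5:**
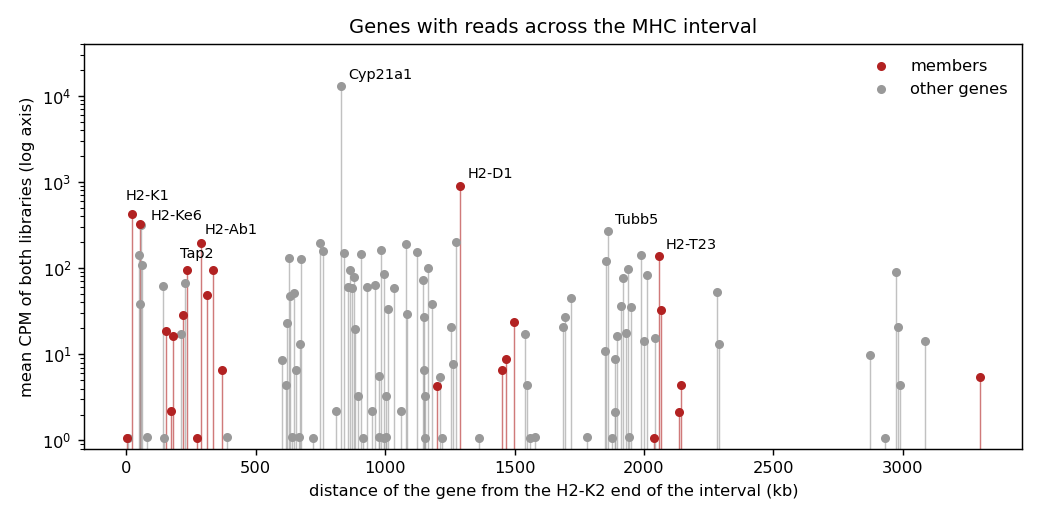
Mean CPM of both libraries (log axis) of each gene with reads, by its distance in kilobases from the H2-K2 end of the interval, with members in red and other genes in grey. Members stand toward the H2-K2 end, around H2-D1, at 906 CPM, and around H2-T23, at 139 CPM, with H2-M3, at 5.45 CPM, toward the far end. Cyp21a1, at 13104 CPM, is the highest point.

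The other genes of the pathways were read from lists. The class I peptide supply list, which holds immunoproteasome subunits and chaperones, had reads for all 11 genes and summed to 1490 ± 33.9 CPM. Its leading members were the disulfide isomerase Pdia3 (250 reads in replicate 1 and 228 in replicate 2), the chaperones Calr (113 and 113) and Canx (94 and 79), and the proteasome activators Psme2 (80 and 107) and Psme1 (62 and 58). None of its 10 tested genes was called, beside 3.16% of all tested genes, and a list this short would often hold no call at that share. By size, 5 were higher in replicate 1 and 5 were lower, at a median log2 ratio of -0.01 beside 0.03 over all tested genes. The class II processing list summed to 4898 ± 333 CPM, led by the lysosomal proteases Ctsd (1016 and 935 reads), Ctsb (964 and 859), Ctsz (114 and 128), Lgmn (80 and 70) and Ctsl (67 and 65). None of its 10 tested genes was called, beside the same 3.16% of all tested genes. These proteases serve lysosomes of all cells.

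Among the complement genes outside C1q, C3, the central component, had 28 reads in replicate 1 and 74 in replicate 2. It was called lower in replicate 1 by Fisher's exact test (adjusted p = 0.000342), beside 1.45% of all tested genes called lower and 1.71% called higher. The liver makes most circulating C3, and in the same libraries the listed liver gene Hp had 175 and 191 reads and the other 11 together 6 and 332. The part of this in the C3 reads was not tested. The list was led by Cfd (750 and 715 reads), a protease of the alternative pathway, followed by C4b (89 and 55), C4a (87 and 49), C2 (61 and 71) and C3. C4a and C4b are near-identical copies.

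Interferon raises class I and class II genes, so 23 interferon response genes were read beside them. Their sum was 334 CPM in replicate 1, against 464 CPM in replicate 2, and 4 of 12 tested were higher in replicate 1 and 8 were lower, at a median log2 ratio of -0.35. None was called. Bst2, which tethers viruses to the cell surface, had 33 reads in replicate 1 and 61 in replicate 2 (adjusted p = 0.0866 by Fisher's exact test), Irf7 17 and 19, Irf9 13 and 20, and Ifit3 7 and 18.

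Markers of other cells that present antigen or take part in immunity were few. A further 25 macrophage genes summed to 91 reads in replicate 1 and 111 in replicate 2. Reads were found for 22 of them, but only 6 had at least 10 reads summed. The list was led by Cyba (23 and 26), Cd14 (10 and 16) and Lgals3 (10 and 15). The dendritic cell list of 9 genes had 7 and 6 reads, and the B cell list of 7 genes had 15 and 15, of which Ighm supplied 15 and 13. The T and natural killer cell list of 10 genes had 2 and 0 reads, the neutrophil list of 7 genes 0 and 2, and the mast cell list of 5 genes 3 and 3. Class I molecules are made by nearly all cells, and the 6 endothelial markers, for comparison, summed to 670 ± 12.6 CPM.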

How the data were processed

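Long reads of whole adrenal gland were sequenced in 2 libraries of 1 group. Each read was placed by the authors on a GENCODE M21 transcript of mm10 or on a new model, and raw counts per model were deposited, per the file headers. No source used here names the aligner. ERCC spike-in rows were removed, counts were summed per annotated gene, and CPM was taken over endogenous reads (452489 in replicate 1 and 463210 in replicate 2). A long read is 1 cDNA molecule, so CPM was not divided by length unless stated.

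Library differences were tested per gene with Fisher's exact test (at least 10 reads summed, 1 CPM added to ratios, Benjamini-Hochberg adjustment), since 2 libraries of 1 group leave no replicated count model. Intervals are exact or Wilson at 95% and cover counting error only. Splice forms were compared over Known, NIC (new combinations of known splice sites) and NNC reads in genes with at least 20 of them per library. Members were picked by symbol, not by a threshold on values, but they and the lists were chosen with earlier results of these data known. All members with reads are named; forms are named at 5 or more full-length reads in each library, and of each list the 5 genes with most reads and every called gene. A few genes that this rule names are not reported here. Python 3.11.15, pandas 2.3.3, SciPy 1.17.1, Biopython 1.88, matplotlib 3.10.9, R 4.3.3, edgeR 4.0.16 (TMM factors) and DESeq2 1.42.0 (size factors) were used.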

Additional observations from a re-analysis of the deposited data

Results flagged for a closer look

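Reads on the strand opposite B2m drew attention because they lie outside the counts of the annotated genes and are above the limit that a count of 0 allows. A spliced model of 2 exons and 398 bases, classed as antisense (chr2:122147686-122151151, minus strand), had 14 reads in replicate 1 and 29 reads in replicate 2. Its exons have the same borders as exons 1 and 2 of B2m-201 on the plus strand. A shorter model that covers exon 1 alone, of 119 bases, had 2 and 21 reads. All models opposite B2m together had 16 reads in replicate 1, beside 229 sense reads, and 50 in replicate 2, beside 214, or 6.53% and 18.9% of both strands. Whether they are transcripts of the opposite strand or B2m reads with the strand assigned the other way was not tested.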

How the results depend on the processing

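Of 78 recomputed values, 62 stayed within the spread between libraries or on their side of the threshold. The 62 include all levels and shares recomputed with a library left out. With 2 libraries, leaving either out cannot move a mean by more than their SD. Those values were therefore bound to stay and do not test how stable the results are. With full-length reads only, H2-Ke6 and the macrophage genes no longer differed beyond their spread. The number of members called was 0 under all 7 alternatives, with a smallest adjusted p by Fisher's exact test of 0.0866 (TMM) to 0.363 (no minimum of reads). Adding 5 CPM instead of 1, or dropping the fold threshold, kept the p-values of the main test, with a smallest adjusted p of 0.199. Both were therefore bound to give 0 and do not test how stable the count is. With full-length reads only, class I heavy chains summed to 1368 CPM, class II to 760, macrophage genes to 208 and H2-Ke6 to 204, instead of 1555, 806, 233 and 329. Per kilobase of the longest Known model, they stood at 759, 601, 192 and 255, and class I assembly at 669. Leaving H2-Ke6 out, chosen after seeing the data, set the Known share at 84.6%, against 81.9%. With incomplete matches counted as forms, the leading share was 41.8% for H2-K1, 40.2% for Tapbp and 77.9% for H2-D1, and with Known reads alone 50.6% for H2-K1 and 100% for H2-D1. Members held 33.7% of the interval without Cyp21a1, against 11.9%. These shifts follow from which reads and lengths are counted. Totals less the listed pancreas and liver genes, also added after seeing the data, moved no level by more than its spread. These lists held 0.839% and 0.113% of replicate 2 reads, so only small shifts were possible. The member reads were left as counted, so whether other tissue supplied some of them was not tested.

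Leaving out a library gave 1507 to 1602 CPM for class I heavy chains, 760 to 855 for assembly, 782 to 829 for class II, 212 to 281 for C1q, 220 to 245 for macrophage genes and 294 to 365 for H2-Ke6. The leading shares ranged from 59.9% to 72.6% for Cd74, 46.0% to 48.5% for H2-K1, 47.6% to 52.2% for Tapbp and 84.2% to 86.5% for H2-D1. No paired analysis was possible because there is 1 group. With 1 read worth 2.21 and 2.16 CPM, members below 10 reads entered the test between libraries only with no minimum of reads. There 38 members were tested and 0 called, beside 217 calls over all genes. The members added in this way had 8 reads or fewer in both libraries together. That is too few for a call at this threshold, so the 0 does not test them. Over the pathway and cell type lists 3 genes were called in the main setting, where 3.16% of all tested genes were called. With no minimum of reads there were 2, C3 among them (adjusted p = 0.000659 by Fisher's exact test).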
